A study of Mus musculus with 4 samples.

Results

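Potassium channels are membrane proteins that let potassium ions leave or enter the cell along their electrochemical gradient, and so set the resting potential, end action potentials and drive ion and fluid transport across epithelia. Their genes carry the symbol Kcn followed by letters for the family and a number for the subunit. The members described here are the protein-coding genes with such a symbol and a mean of at least 10 normalized counts over the 4 libraries of the series, which gave 54 genes of the 48709 in the deposited table. Another 39 genes with such a symbol lay below that mean. By class, set from the symbol, 31 members are voltage-gated, of which 21 form the pore and 10 are auxiliary subunits. A further 7 are inward rectifiers, 7 are two-pore channels and 9 belong to the families of calcium- or sodium-activated channels, beta subunits included.

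The libraries come from the left lung lobes of C57BL/6 mice at postnatal day 1, without treatment. There are 2 libraries from RykSL/SL mice, which are homozygous for the SL allele of Ryk, the gene of a receptor for WNT ligands, and 2 from wild-type mice, each from a separate animal. What the allele does to the protein is not described in the labels, and the lobes were extracted whole, so that fewer cells of a type and less RNA per cell cannot be told apart in any value below. The normalized counts of the libraries summed to between 18658239 and 19987634. RykSL/SL replicate 1 had the most reads before scaling and RykSL/SL replicate 2 the fewest, with estimated scaling factors of 0.855 and 1.1723. Ryk itself stood at 2757 and 2203 in the RykSL/SL lungs and at 2528 and 2525 in the wild type. RykSL/SL replicate 1 differed from the other 3 lungs in Xist, at 24836 normalized counts where the others had at most 23, and in the Y-linked gene Ddx3y, at 56 where the others had at least 2197. The labels give no sex.

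The classes differ in what opens them. Voltage-gated channels open when the membrane depolarizes, and their auxiliary subunits change the gating and surface number of the pore. Inward rectifiers pass current more easily into the cell than out and hold the resting potential, two-pore channels carry a steady leak current, and the channels gated by calcium or sodium link the potential to the ions inside the cell. In the lung, such channels set the tone of pulmonary arteries and airway smooth muscle and the driving force for the salt and liquid transport of the epithelium.

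Per kilobase of exon, the most abundant member over the 4 libraries was Kcne2, a small single-pass auxiliary subunit, at a mean of 450 normalized counts per kilobase. It was followed by the inward rectifier Kcnj15 at 333 and the two-pore channel Kcnk1 at 295. Next came Kcnj8, the pore of the vascular ATP-sensitive channel, at 193, and the two-pore channel Kcnk3, a background channel of pulmonary artery smooth muscle, at 160. This order rests on RykSL/SL replicate 2: without it the mean was 294 for Kcne2, below 302 for Kcnj15, and 140 for Kcnj8, below 182 for Kcnk3. In the wild-type lungs alone, Kcne2 stood highest with levels of 379 and 235 per kilobase. Kcnj15 (208 and 199) and Kcnk3 (171 and 218) overlapped with each other. Kcnk1, at 166 and 149, lay just below them, and Kcnj8, at 135 and 144, below Kcnk1, both without overlap. The pore of the large-conductance calcium-activated channel, Kcnma1, had the lowest level of all members at 0.604 per kilobase, while the level of its beta subunit gene Kcnmb2 was 46.1 per kilobase. These levels use all annotated exons of a gene, so they are too low for a gene whose long isoforms are not used.

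**Figure D1:**
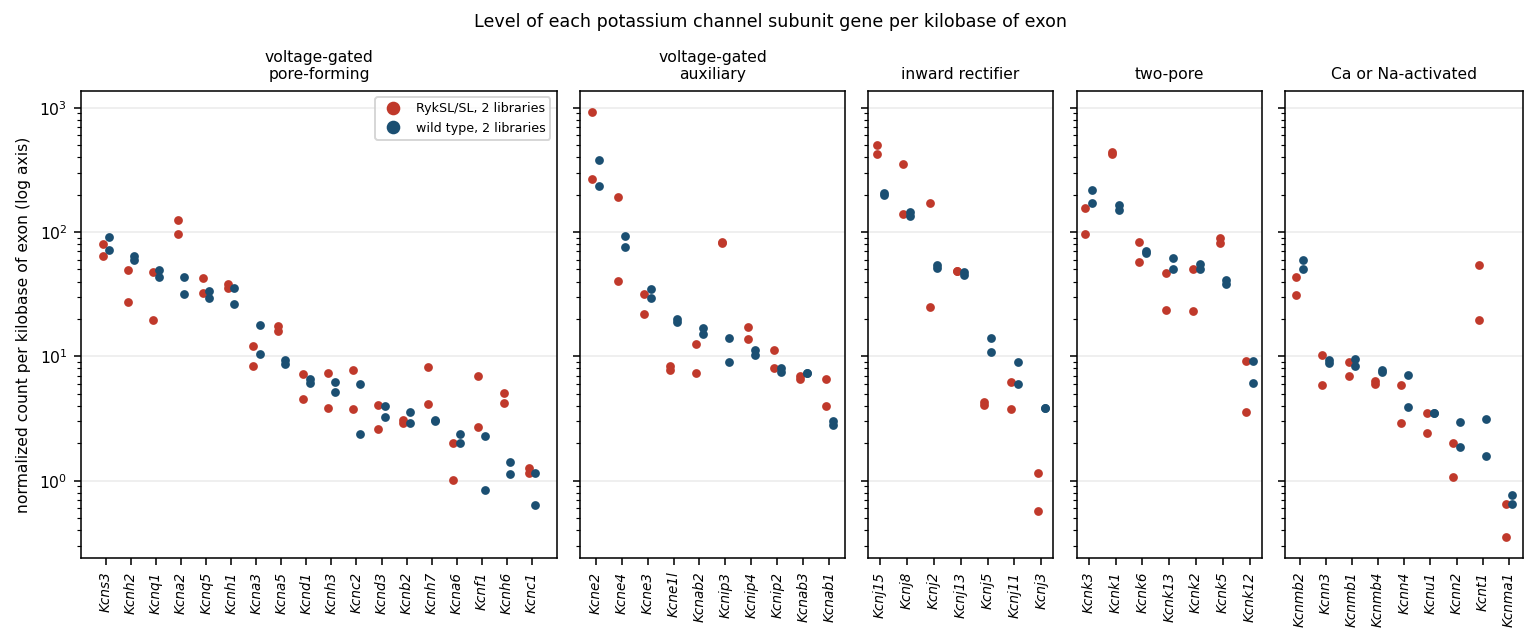
Level of each of 51 members in normalized counts per kilobase of annotated exon (vertical log axis), by class and in order of the wild-type mean. Each point is 1 library, red for RykSL/SL and blue for wild type, and levels run from 920.8 per kilobase (Kcne2, RykSL/SL replicate 2) down to 0.353 (Kcnma1, RykSL/SL replicate 2).

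Between the genotypes, 6 of the 54 members rose in the RykSL/SL lungs, none fell and 48 did not pass the test. The 6 were the sodium-activated channel Kcnt1, the calcium-binding auxiliary subunit Kcnip3, the voltage-gated channel Kcna2, the two-pore channels Kcnk1 and Kcnk5 and the inward rectifier Kcnj15, so that each class held at least 1. Genotypes were compared by limma on log2(value + 1), with Benjamini-Hochberg adjustment over the 18436 genes that reached a mean of 10, and a gene was called at an adjusted p under 0.05. Fold changes below are log2 values on that scale, and the figure after ± is the standard error. The members' share of 11.1% called higher compares with 1.47% of all tested genes, and the members' 0 called lower with 0.917% of all tested genes. Since the members were chosen with earlier results of these data known, these shares describe them and are not a test. At an unadjusted p under 0.05, limma had 9 members higher and 5 lower, beside 10.4% and 9.64% of all tested genes. The median log2 fold change of the members was -0.11, beside -0.02 for all tested genes. Both RykSL/SL lungs lay above both wild-type lungs in 15 members (27.8%, against 25.7% of all tested genes) and below both in 10 (18.5%, against 26.9%), which is near the background for the higher side.

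The 6 calls depended on which lungs were in the fit. They were all kept without RykSL/SL replicate 1, with adjusted p between 0.0407 and 0.0488 (limma), but limma called 0 members higher when RykSL/SL replicate 2, wild-type replicate 1 or wild-type replicate 2 was left out, where 9, 7 and 8 members were higher at an unadjusted p under 0.05. Of all tested genes, 15%, 2.88% and 3.53% were higher at that level in these settings. In each of the 6, both RykSL/SL lungs lay above both wild-type lungs, so leaving out a lung could not turn its direction. The range of each change is given below.

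**Figure D2:**
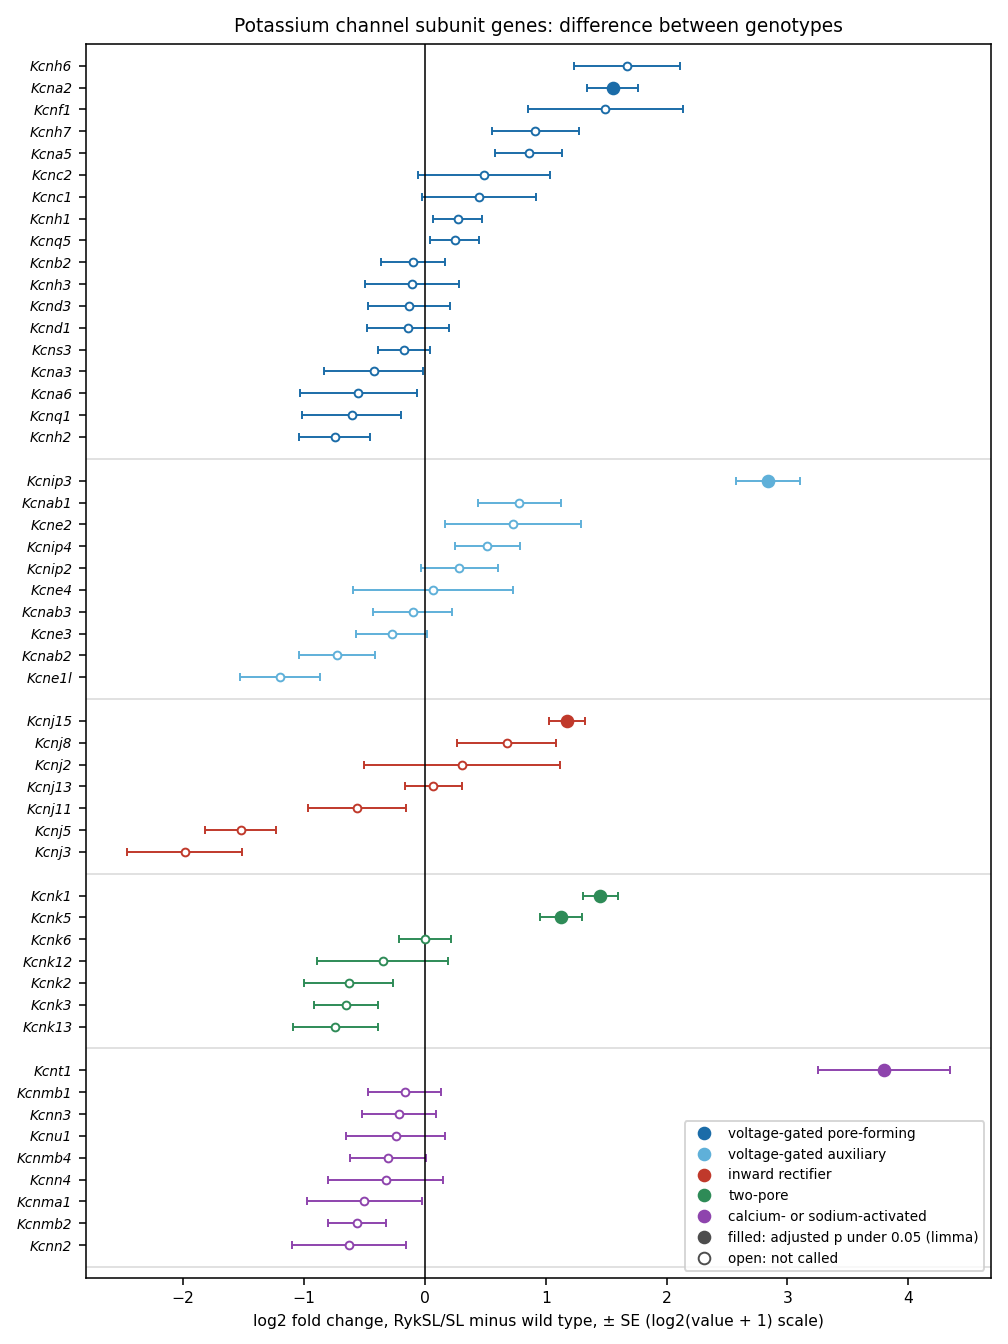
Log2 fold change of each of 51 members (horizontal axis, RykSL/SL against wild type, computed on log2(value + 1)), with bars for the standard error from limma and colours for the classes. Filled points are the 6 called members, all on the right of 0, from 1.12 (Kcnk5) to 3.80 (Kcnt1), and open points are the 45 others, which did not pass.

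Promoter sequences of RefSeq (GRCm38.p6), from 250 bases before to 50 after a start site, were matched by symbol for 40 of the 54 members, with 57 start sites in all. Kcnt1 was not among them. The promoters of the other 5 called genes were searched on both strands for short motifs. These were ACANNNTGT, the core of the glucocorticoid response element, CACGTG, an E-box that clock factors bind, TGANTCA, the AP-1 site, and TATAAA, the TATA box. None of the 7 listed promoters of Kcna2, Kcnip3, Kcnj15, Kcnk1 and Kcnk5 held ACANNNTGT, which occurs in 6.85% of all 32851 promoters. The 3 promoters with a match are shown here for where it lies, in capitals. Kcnip3 at the start site of the deposited table (chr2:127522045-127522344, minus strand) held TGANTCA, found in 7.81% of all promoters. Kcnj15 (chr16:95257308-95257607, plus strand) held TATAAA on the opposite strand and after the start site, found in 13.6%. Kcnk5 (chr14:20181733-20182032, minus strand) held CACGTG, also after the start site, found in 7.15%.
Kcnip3: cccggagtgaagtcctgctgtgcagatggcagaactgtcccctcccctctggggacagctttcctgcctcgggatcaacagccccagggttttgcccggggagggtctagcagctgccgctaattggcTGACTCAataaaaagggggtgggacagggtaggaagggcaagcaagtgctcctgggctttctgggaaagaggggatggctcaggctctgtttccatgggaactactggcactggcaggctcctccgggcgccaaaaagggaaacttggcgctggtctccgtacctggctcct
Kcnj15: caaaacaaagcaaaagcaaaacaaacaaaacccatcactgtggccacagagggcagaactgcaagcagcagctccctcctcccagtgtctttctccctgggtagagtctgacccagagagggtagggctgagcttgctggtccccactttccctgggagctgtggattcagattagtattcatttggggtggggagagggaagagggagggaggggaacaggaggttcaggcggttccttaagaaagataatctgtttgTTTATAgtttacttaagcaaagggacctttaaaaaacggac
Kcnk5: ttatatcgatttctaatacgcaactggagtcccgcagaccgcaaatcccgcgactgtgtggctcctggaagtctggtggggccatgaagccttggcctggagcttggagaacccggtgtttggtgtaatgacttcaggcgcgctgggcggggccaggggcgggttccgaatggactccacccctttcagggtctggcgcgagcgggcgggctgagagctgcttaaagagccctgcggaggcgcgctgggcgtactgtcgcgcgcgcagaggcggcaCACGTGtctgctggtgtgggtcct
Each of these 3 promoters held 1 of the 4 motifs, and no motif was shared by them. So few promoters cannot show whether a motif is more or less common in them than in all promoters. The promoters listed for Kcna2 and Kcnk1 and the other 2 of Kcnip3 held none. Over the 57 promoters of members, the shares with a match were 8.77%, 10.5%, 7.02% and 5.26% in the order of the motifs above. The GC content ranged widely over the called genes' promoters, from 49% in Kcnk1 to 73.3% in the innermost Kcnip3 promoter, beside a median of 57.7% over members and 52.7% over all promoters.

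Among the pore-forming voltage-gated genes, 1 of 21 rose and none fell. Kcna2 encodes a subunit of the Shaker family of delayed rectifiers, best known from axons. It lies on chromosome 3, positions 107101146 to 107115005 (GRCm38). Kcna2 had 1145 and 1485 normalized counts in the RykSL/SL lungs and 381 and 515 in the wild type. Both RykSL/SL lungs lay far above both wild-type lungs, and the log2 fold change was 1.55 ± 0.21 (limma, adjusted p = 0.0289). It ranged from 1.34 to 1.77 as each lung was left out. Kcna3, a Shaker channel of T lymphocytes whose gene is the neighbour of Kcna2 at a distance of 63076 bases, was at 23 and 16 against 20 and 34 (-0.42, adjusted p = 0.605). Kcna10, 68051 bases beyond Kcna2 on the other side, was near 0 in each library. Kcna5, a Shaker channel of pulmonary artery muscle, was at 50 and 46 against 27 and 25, and the genotypes did not overlap, but the gene did not pass (0.86, adjusted p = 0.173).

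Kcns3, a silent subunit that modifies other delayed rectifiers, had 253 and 202 against 225 and 289 (-0.17 ± 0.21, adjusted p = 0.694). The delayed rectifier Kcnb2 was at 44 and 47 against 54 and 44 (-0.10, adjusted p = 0.87). Neither gene separated the genotypes.

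Of the ether-a-go-go family, Kcnh2, the pore of a repolarizing current of heart muscle, was at 239 and 132 against 287 and 311 (-0.75, adjusted p = 0.236). Its relatives of the same subfamily had higher values in the RykSL/SL lungs. Kcnh6 was at 15 and 18 against 5 and 4 (1.67 ± 0.44, adjusted p = 0.123) and Kcnh7 at 63 and 124 against 46 and 47 (0.91, adjusted p = 0.234). Neither overlapped between genotypes, and the Kcnh6 values rest on few reads. Kcnf1, another silent subunit, was at 13 and 33 against 4 and 11 (1.49 ± 0.64, adjusted p = 0.266). Kcnq1 and Kcnq5, slow voltage-gated channels, had log2 fold changes of -0.61 and 0.25, with adjusted p of 0.456 and 0.54. The further pore-forming voltage-gated members Kcna6, Kcnc1, Kcnc2, Kcnd1, Kcnd3, Kcnh1 and Kcnh3, had log2 fold changes between -0.55 and 0.49 and did not pass.

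Of the 10 auxiliary subunits, 1 rose and none fell. Kcnip3 encodes a calcium-binding protein of the potassium channel interacting family, which modulates Kcnd channels and is also known as a transcriptional repressor. It lies on chromosome 2, positions 127456498 to 127522094 (GRCm38). Kcnip3 had 294 and 292 normalized counts in the RykSL/SL lungs and 32 and 50 in the wild type. The RykSL/SL lungs were almost level with each other, and the log2 fold change was 2.84 ± 0.27 (limma, adjusted p = 0.0112), the smallest adjusted p of the 54 members. Leaving out each lung gave 2.53 to 3.16. The other family members Kcnip2 (0.28, adjusted p = 0.665) and Kcnip4 (0.52, adjusted p = 0.346) were not called. The pores they act on, Kcnd1 and Kcnd3, were not called either (-0.14 and -0.13, adjusted p of 0.851 and 0.865).

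Among the single-pass subunits of the Kcne family, the most abundant were far apart in the RykSL/SL lungs. Kcne2 was at 471 and 1627 against 670 and 416 (0.73 ± 0.57, adjusted p = 0.519), and Kcne4 at 108 and 504 against 247 and 202 (0.06 ± 0.66, adjusted p = 0.969). In both, RykSL/SL replicate 2 was the highest of the 4 lungs. Kcne3 was at 39 and 56 against 62 and 52 (-0.28, adjusted p = 0.645). Kcne1l, on the X chromosome, was at 12 and 13 against 31 and 29, lower in both RykSL/SL lungs, but was not called (-1.20 ± 0.33, adjusted p = 0.136). The other X-linked member, Kcnd1, stood at 24 and 38 against 35 and 32. The cytosolic beta subunits Kcnab1 (0.78), Kcnab2 (-0.73) and Kcnab3 (-0.10) had adjusted p of 0.276, 0.266 and 0.894.

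Among the 7 inward rectifiers, 1 rose and none fell. Kcnj15 lies on chromosome 16, positions 95257558 to 95300260 (GRCm38), and had the highest mean normalized count of all members. It was at 3147 and 2685 in the RykSL/SL lungs and at 1312 and 1258 in the wild type. The lungs of each genotype lay close together and far from the other genotype, with a log2 fold change of 1.18 ± 0.15 (limma, adjusted p = 0.0232). It ranged from 1.06 to 1.29 as each lung was left out. Kcnj6, the next Kcn gene on the same chromosome at a distance of 259862 bases, was near 0 in all lungs.

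The genes of the atrial channel that acetylcholine opens through G proteins, Kcnj3 and Kcnj5, had the most negative log2 fold changes of the members. Kcnj3 was at 3 and 6 against 20 and 20 (-1.99 ± 0.48, adjusted p = 0.101). Kcnj5 was at 19 and 20 against 51 and 66 (-1.53 ± 0.30, adjusted p = 0.0636). The genotypes did not overlap in either gene, and neither passed the test. Reads of Kcnj3 are partly uncertain, since other genes' transcripts hold 29.3% of its 50-base sequences. Of 11 tested heart muscle markers, 4 fell in limma (Myl7, Myl4, Mybpc3 and Ttn), none rose and 8 had an unadjusted p under 0.05. All 11 lay lower in both RykSL/SL lungs. Of all tested genes, 0.917% fell and 26.9% lay lower in both RykSL/SL lungs. The 12 listed genes, none of them at 0 throughout, summed to 4227 and 4057 normalized counts against 8115 and 8116. The part of heart muscle tissue in the Kcnj3 and Kcnj5 values was not tested.

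The pores of the ATP-sensitive channels did not pass. Kcnj8, of vascular muscle and pericytes, was at 358 and 903 against 343 and 368 (0.68 ± 0.41, adjusted p = 0.407), so that RykSL/SL replicate 1 stood within the wild-type range and replicate 2 far above it. Its sulfonylurea receptor partner Abcc9 was at 564 and 635 against 354 and 444 (0.59, adjusted p = 0.151), and 8 pericyte markers, of which none was called (3 at an unadjusted p under 0.05), summed to 9299 and 7393 against 6542 and 7154. Their part in the Kcnj8 values was not tested. Kcnj11 was at 14 and 23 against 33 and 22 (-0.56, adjusted p = 0.491), with its partner Abcc8 at -0.30 (adjusted p = 0.715). Kcnj2, a strong rectifier of muscle and endothelium, had the widest gap between the RykSL/SL lungs of any member. It was at 135 and 938, below and above the wild-type values of 296 and 280 (0.31 ± 0.81, adjusted p = 0.868). Kcnj13, an epithelial channel gene, was almost level at 62 and 62 against 61 and 57, although 42.1% of its 50-base sequences occur in transcripts of other genes.

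Of the 7 two-pore genes, 2 rose and none fell. Kcnk1 encodes a weakly inward-rectifying background channel and lies on chromosome 8, positions 125995170 to 126030685 (GRCm38). It had 977 and 952 normalized counts in the RykSL/SL lungs and 370 and 334 in the wild type. Its log2 fold change was 1.45 ± 0.14 (limma, adjusted p = 0.0133), and 1.38 to 1.53 as each lung was left out. Kcnk5, a background channel of epithelia that alkaline pH opens, lies on chromosome 14, positions 20140058 to 20181782 (GRCm38). Its values were 307 and 280 against 139 and 129, which is a log2 fold change of 1.12 ± 0.17 (limma, adjusted p = 0.0367), and 1.06 to 1.19 as each lung was left out. For both genes the gap between genotypes was much wider than the gap between lungs of one genotype. The close relative of Kcnk1, Kcnk6, did not pass, at 342 and 239 against 290 and 281 (0.00 ± 0.21, adjusted p = 0.996, 95% interval of the fit -0.52 to 0.53).

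The other two-pore genes had lower values in RykSL/SL replicate 2 only or mainly. Kcnk3 was at 625 and 381 against 679 and 866 (-0.65 ± 0.27, adjusted p = 0.248). Kcnk2, a channel that stretch and lipids open, was at 251 and 114 against 275 and 251 (-0.63, adjusted p = 0.389). Kcnk13, known from microglia, was at 147 and 73 against 158 and 192 (-0.74, adjusted p = 0.301), and its silent relative Kcnk12 at 18 and 7 against 12 and 18 (-0.35, adjusted p = 0.761). Of 10 smooth muscle markers, 9 were also lowest in that lung, where they summed to 4692 against 11713 in RykSL/SL replicate 1 and 9606 and 8325 in the wild type. The tenth, Hhip, was highest there, and with it the sum was 9437 against 15713 in RykSL/SL replicate 1 and 13660 and 11753 in the wild type, and none was called (1 at an unadjusted p under 0.05). Macrophage markers summed to 19097 and 18878 against 36695 and 27085 over 10 genes, of which 1 fell in limma (8 at an unadjusted p under 0.05). Most of these sums came from Lyz2, at 16266 and 16108 against 32500 and 23395. Of the 10 genes, 9 lay lower in both RykSL/SL lungs, as did 26.9% of all tested genes. The part of these cell types in the two-pore values was not tested.

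Of the 9 genes of the calcium- or sodium-activated class, 1 rose and none fell. Kcnt1, whose product opens as sodium enters the cell and is best known from neurons, lies on chromosome 2, positions 25863734 to 25918273 (GRCm38). It had 185 and 516 normalized counts in the RykSL/SL lungs and 15 and 30 in the wild type. The RykSL/SL lungs were far apart, yet even the lower lay well above the wild type. The log2 fold change was 3.80 ± 0.55 (limma, adjusted p = 0.0315), and 3.06 to 4.54 as each lung was left out. Its only close relative, Kcnt2, had at most 4 normalized counts in any library and lay below the filter. Per kilobase, the Kcnt1 level went from 1.58 and 3.16 in the wild type to 19.5 and 54.3. Its wild-type levels overlapped those of Kcnn2, near the low end of the class, and its RykSL/SL levels lay on either side of those of Kcnmb2 there, 43.5 and 31.3.

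The other 8 genes of the class had log2 fold changes between -0.63 and -0.17. The beta subunits of the large-conductance channel were Kcnmb2, at 136 and 98 against 185 and 158 (-0.56 ± 0.24, adjusted p = 0.258), Kcnmb1, the smooth muscle form (-0.17, adjusted p = 0.795), and Kcnmb4 (-0.30, adjusted p = 0.638). For Kcnmb4, 30.7% of the 50-base sequences occur in other genes. The pore gene Kcnma1 was at 11 and 6 against 13 and 11, and Kcnu1, its relative known from sperm, at 13 and 9 against 13 and 13. The calcium-activated small and intermediate conductance genes Kcnn2 (-0.63), Kcnn3 (-0.21) and Kcnn4 (-0.32) had adjusted p of 0.504, 0.745 and 0.747. Kcnn3 split the RykSL/SL lungs, at 62 and 108 around the wild-type values of 97 and 93 (-0.21 ± 0.31).

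**Figure D3:**
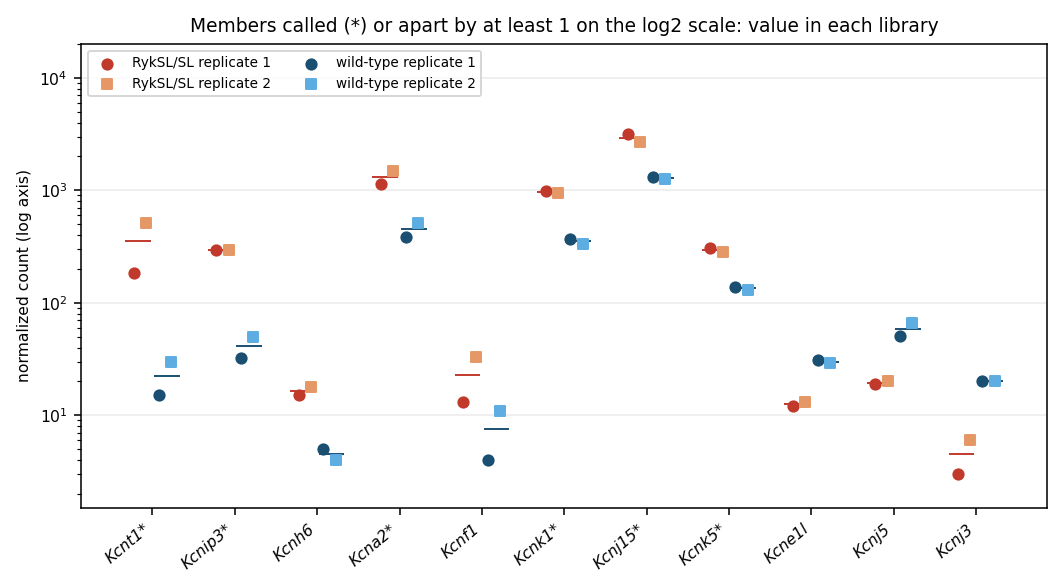
Normalized counts in each of the 4 libraries (vertical log axis) for the 6 called members, marked with a star, and the 5 others whose genotypes did not overlap and were apart by 1 log2 unit or more. Short lines are the genotype means. RykSL/SL values lie above the wild type in 8 genes and below it in Kcne1l, Kcnj5 and Kcnj3.

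The called genes were set beside markers of the epithelial and nerve-like cells of the lung. Of 10 alveolar type 1 and 10 alveolar type 2 genes none passed in limma, with 2 and 1 at an unadjusted p under 0.05. They summed to 95341 and 84199 against 101233 and 101817 and to 301638 and 259370 against 356681 and 327572. Neuroendocrine markers, relevant because Kcnt1, Kcnip3 and Kcna2 are best known from nerve cells, summed to 659 and 685 over 10 genes, none of them at 0 throughout, against 336 and 303. None of the 7 tested passed in limma (2 at an unadjusted p under 0.05), and Calca had the smallest adjusted p, at 147 and 328 against 60 and 69 (1.76, adjusted p = 0.0846). The 10 neuron and Schwann cell markers, of which 3 could be tested and 0 passed in limma (0 at an unadjusted p under 0.05), summed to 1320 and 1161 against 1228 and 1232. The part of neuroendocrine cells in these 3 genes was not tested.

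The 6 called genes lie on 5 chromosomes, with Kcnt1 and Kcnip3 both on chromosome 2. Their nearest measured protein-coding neighbours, 2 on either side, did not pass in any case. The smallest adjusted p among these 24 neighbours was that of Ets2, after Kcnj15, with 0.0799 (0.91). Camsap1, 8565 bases after Kcnt1, followed with 0.0931 (0.63). Prom2, 4379 bases from Kcnip3, was at 89 and 64 against 28 and 37 (1.20, adjusted p = 0.111). At most 5.82% of the 50-base sequences of a called gene occur in other genes, in Kcnk1. Exons on the opposite strand overlap Kcnk1 by 179 bases and Kcnj15 by 333 bases, while no source used here gives the strand setting of the counting.

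The RykSL/SL lungs were less alike than the wild-type lungs, in the potassium channel genes as over all tested genes. The gap between them was 1 log2 unit or more in 12 of the 54 members (22.2%, against 8.15% of all tested genes), and the wild-type lungs in 2 (3.7%, against 1.56%). Among the 12 were Kcnc2, Kcne2, Kcne4, Kcnf1, Kcnj2, Kcnj8, Kcnk2, Kcnk12, Kcnk13, Kcnq1 and Kcnt1, and the 2 of the wild type were Kcnc2 and Kcnf1. In 7 members, among them Kcnd1, Kcnd3, Kcne4, Kcnh3, Kcnj2 and Kcnn3, replicate 1 lay below and replicate 2 above both wild-type lungs (10.3% of all tested genes). The opposite order held in 1 member, Kcnk6 (10.9% of all tested genes). A mean of at least 50 was reached by 28 of the 54 members, against 14700 of the 18436 tested genes. Replicate 1 is the lung with high Xist, and the parts of level and of sex in these gaps were not tested.

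Without RykSL/SL replicate 1, when the lone RykSL/SL lung is assumed to vary like the wild-type pair, limma called 12 members, 9 higher and 3 lower, beside 6.5% and 6.43% of all tested genes. All tested genes called in that setting numbered 2385, against 440 with all 4 lungs. Besides the same 6, Kcnj2 (1.70), Kcnj8 (1.34) and Kcnh7 (1.396) were higher, and Kcnh2 (-1.17), Kcnk2 (-1.20) and Kcnq1 (-1.24) lower, with adjusted p from 0.0407 to 0.0453. In RykSL/SL replicate 1 these 6 genes stood at -1.09, 0.01, 0.43, -0.32, -0.07 and 0.03 from the wild-type mean, in the same order. The difference of Kcnj2 thus had opposite signs in the 2 lungs, as had that of Kcnq1, which was close to the wild-type mean in replicate 1. The 6 genes called in all lungs were apart from the wild type by 1.06 to 4.54 in replicate 2 and by 1.19 to 3.06 in replicate 1.

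**Figure D4:**
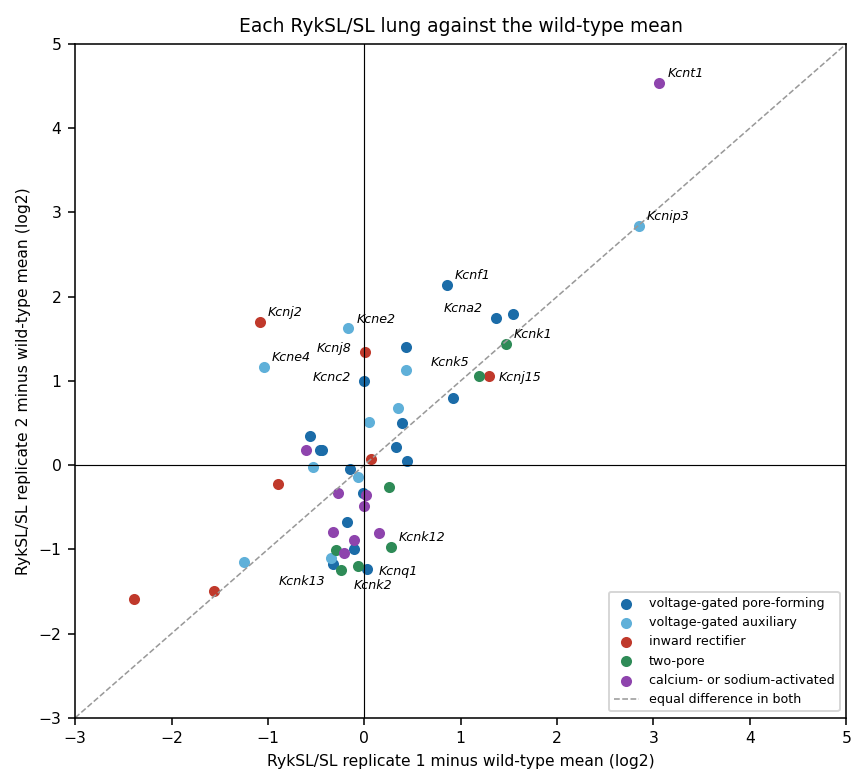
Difference of each RykSL/SL lung from the wild-type mean on the log2(value + 1) scale, replicate 1 on the horizontal and replicate 2 on the vertical axis, with 1 point for each of 51 members, coloured by class. The 6 called genes and the 11 drawn with a gap of at least 1 between the lungs are named (Kcnt1 is both). Kcnip3, Kcnk1, Kcnk5 and Kcnj15 lie near the dashed line of equal difference, and Kcnj2 lies far from it, at -1.09 and 1.70.

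Other genes that handle potassium were read from 2 lists. Of 27 tested genes of pumps, cotransporters and their regulators, 2 rose and none fell in limma (10 at an unadjusted p under 0.05). Of all 18436 tested genes, 1.47% rose, 0.917% fell and 3703 had an unadjusted p under 0.05. Atp1b1, the beta subunit of the sodium-potassium pump, was at 14628 and 12787 against 4846 and 4952, or 1.48 ± 0.16 (limma, adjusted p = 0.0154). Sgk1, a kinase that raises sodium channel and pump activity, was at 6789 and 5636 against 3264 and 2558 (1.10 ± 0.19, limma, adjusted p = 0.0452). After quantile normalization only Atp1b1 of the 2 passed. The list median was 0.31, beside -0.02 for all tested genes. Of 16 tested channel partners, which include the sulfonylurea receptors, the Hcn pacemaker channels and the Lrrc subunits, none passed in limma (4 at an unadjusted p under 0.05), and the list median was -0.01.

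Of the 39 Kcn genes below the filter, 5 were at 0 in every library, namely Kcnh5, Kcnj4, Kcnk9, Kcnk15 and Kcnk18. Just inside the filter were Kcnc1 with a mean of 10, Kcnma1 with 10.2 and Kcnh6 with 10.5, and just outside it Kcnj10 and Kcnj12 with 9.5 each and Kcng2 with 9.25. None of the 4 Kcng genes, which encode silent voltage-gated subunits, reached the filter.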

How the data were processed

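RNA from left lung lobes of 4 mice (3 micrograms of it a library) went into a stranded mRNA kit, per the labels' protocols. The submitters' processing notes name FastQC, STAR 2.4.0a, featureCounts 1.5.1 (Subread), DESeq2 1.14.1 and the builds mm10 and GRCm38. The deposited values, treated as a score, are normalized counts that the authors rounded to whole numbers; no source used here gives their scaling or the strand setting. Library factors were estimated from the gaps that scaling and rounding leave, at 0.855, 1.1723, 0.9866 and 0.998 for RykSL/SL replicates 1 and 2 and wild-type replicates 1 and 2. No count model was run, since factors below 1 merge neighbouring counts. A value near 10 rests on about 10 reads.

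Groups and replicate numbers came from the titles. All 18436 genes with a mean of at least 10 were fitted with limma 3.58.1 (R 4.3.3) on log2(value + 1) with a mean-variance trend (4.07 prior degrees of freedom), two-sided, and called at a Benjamini-Hochberg adjusted p under 0.05. Fold changes on this scale understate low genes. The fit was tried on simulated counts with 2 libraries for each genotype. It called 66 of 100 genes changed by 1 log2 unit, 99 of 100 changed by 2 and 4 of 18236 unchanged genes. The simulation gave both genotypes the same spread, so it cannot show how the fit does with RykSL/SL lungs less alike than the wild-type lungs. Exon lengths, overlaps and shared 50-base sequences came from GENCODE M21 (GRCm38), which holds all 54 members, 47 with the same start and end as the deposited table. Python 3.11.15, pandas 2.3.3, numpy 2.4.6 and matplotlib 3.10.9 did the rest.

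The members and lists were chosen with earlier results of these data known. Full values were given, by rule, for members that were called, for those apart by at least 1 on the log2 scale without overlap, and for the 3 highest per kilobase of each class. Values of 3 members are not reported here, although all 54 were tested and counted. Values of further members, and of Calca, Hhip, Prom2, Camsap1 and Ets2, were added after they were seen, as were the levels without RykSL/SL replicate 2 and the smooth muscle sum without Hhip. Marker lists not printed in the report gave these counts of tested genes called higher and lower: endothelium 0 and 0 of 10, ciliated 0 and 0 of 8, club 0 and 0 of 8, fibroblast 1 and 2 of 10, T lymphocyte 0 and 0 of 4, B lymphocyte 0 and 3 of 8, mast cell 0 and 0 of 5, erythroid 0 and 0 of 8, mesothelium 0 and 0 of 6.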

Additional observations from a re-analysis of the deposited data

How the results depend on the processing

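The count of 6 members called higher stayed at 6 with quantile normalization, with a pseudocount of 0.5 or 5 and with a minimum mean of 50, and it was the same 6 genes each time. With no filter on low values, limma called 0 members and 0 of all genes (11 members and 4876 genes at an unadjusted p under 0.05). Without the mean-variance trend it called 1 member, Kcnip3, and 72 genes in all, with adjusted p of the 6 between 0.0463 and 0.0836. As each lung was left out in turn, the members called higher ranged from 0 to 9, those lower from 0 to 3, and all genes called from 0 to 2385. The log2 fold changes of the 6 genes kept their sign in every alternative run, but few runs could have turned it. Changing the filter or trend, or adding the replicate block described below, leaves a log2 fold change as it is. Leaving out a lung or changing the pseudocount cannot turn a gene whose genotypes do not overlap.

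The count of 2 called over the lists of other potassium genes, Atp1b1 and Sgk1, became 1 with quantile normalization, 0 without a filter and 0 without the trend. With the replicate number as a block, the members called higher remained 6, and 1 member, Kcnj5, was called lower (-1.53, adjusted p = 0.0493), with 766 genes called in all. Nothing in the labels ties lungs of the same number, and the deviations of replicate 1 from the genotype means correlated at -0.058 over genes, so the block is a check on the fit and not a paired design. With 2 lungs for each genotype, a member that missed the threshold is not shown to be level, and members near a mean of 10 carry large counting error.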
